A study of Mus musculus with 73 samples.

Results

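The libraries described here are the epiblasts of 11 wild-type mouse embryos at embryonic day 6.5 from reciprocal crosses between BDF1 mice and the wild-derived strain CAST. They were chosen by genotype, tissue and cross, and are 11 of the 73 samples of the series. In the BDF1xCAST cross (7 embryos, 4 male and 3 female) the mother was BDF1, itself a hybrid of C57BL/6 and DBA, and the father was CAST. In the CASTxBDF1 cross (4 embryos, 1 male and 3 female) the mother was CAST and the father BDF1. The BDF1xCAST embryos came from superovulated oocytes fertilised by injection of thawed CAST sperm and were transferred as blastocysts into CD-1 females, and the CASTxBDF1 embryos came from natural matings. The direction of the cross and the route by which the embryos were made therefore cannot be told apart. All 11 embryos are labelled wild type. Each library came from one embryo, after the visceral endoderm had been removed by enzyme and capillary, and the extraembryonic ectoderm (ExE) of the same 11 embryos was sequenced beside it.

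Imprinted genes are transcribed mainly from the allele inherited from one parent, because DNA methylation set in the egg or sperm, or another mark, survives on one parental chromosome. In a hybrid embryo, reads that cover a strain polymorphism can be given to the maternal or the paternal chromosome. One cross alone cannot tell a gene that follows its parent from a gene that follows its strain, since the mother is always BDF1. In the reciprocal cross an imprinted gene keeps its parent and a strain-biased gene keeps its strain. The epiblast, which forms the embryo proper, and the ExE, which contributes to the placenta, are known to differ in the imprints they use.

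The libraries held 2372314 to 3028267 reads over polymorphic sites, except BDF1xCAST embryo 8 with 1311863. Fgf5, a growth factor gene that marks the epiblast, was at 284 to 574 CPM (counts of a gene per 1000000 allele-informative reads of its library, not corrected for gene length) in the epiblasts and 0 to 1.10 CPM in the ExE. Elf5, a transcription factor gene of the trophoblast, was at 0 to 13 CPM in the epiblasts and 171 to 535 CPM in the ExE. Pou5f1, a defining pluripotency gene, was at 0 to 1.61 CPM and at 0 in 4 of the 11 libraries, where only reads over strain polymorphisms count. Markers of the visceral endoderm, 15 of 15 in the table, summed to 94.8 to 251 CPM in 9 libraries, to 1048 CPM in BDF1xCAST embryo 8 and to 3867 CPM in CASTxBDF1 embryo 2. Afp and Ttr, 2 of these markers, were each at 0 in 3 libraries. Markers of decidua and maternal blood, 14 of 16 in the table, summed to 5.14 to 23.6 CPM. These 2 libraries with most visceral endoderm RNA stand apart from the rest of the group, and results that rest on them are given with and without them. In the 5 male epiblasts, whose X chromosome is maternal, 0.501 to 1.84% of X-linked reads were given to the paternal allele. The highest value was that of CASTxBDF1 embryo 2, the only male of its cross and the only one with a CAST X. The ExE of that embryo had 1.82%, beside 0.392 to 0.512% in the ExE of the BDF1xCAST males. Whether the strain of the X bears on this share was not tested.

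The reciprocal crosses returned 23 autosomal genes expressed from the same parental allele in both directions, 14 paternally and 9 maternally. A gene was called when edgeR's quasi-likelihood test of its maternal against paternal reads passed a Benjamini-Hochberg adjusted p of 0.05, and when its mean maternal share reached 70% in each cross, or stayed within 30% in each. Testing was limited to the 8469 autosomal genes that 10 or more reads covered in 3 or more embryos per cross. Of these 0.272% were called, 0.165% as paternal and 0.106% as maternal. The same genes had a median maternal share, averaged over both crosses, of 50.2%, with a 5th percentile of 44.2% and a 95th percentile of 56.5%. Of the 77 genes listed as imprinted from textbook knowledge, 38 could be tested and 19 were called. For 18 of these the parent was the listed one. The other 4 called genes, Fkbp6, Gm32885, 2400006E01Rik and LOC102631979, were not on that list.

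**Figure D1:**
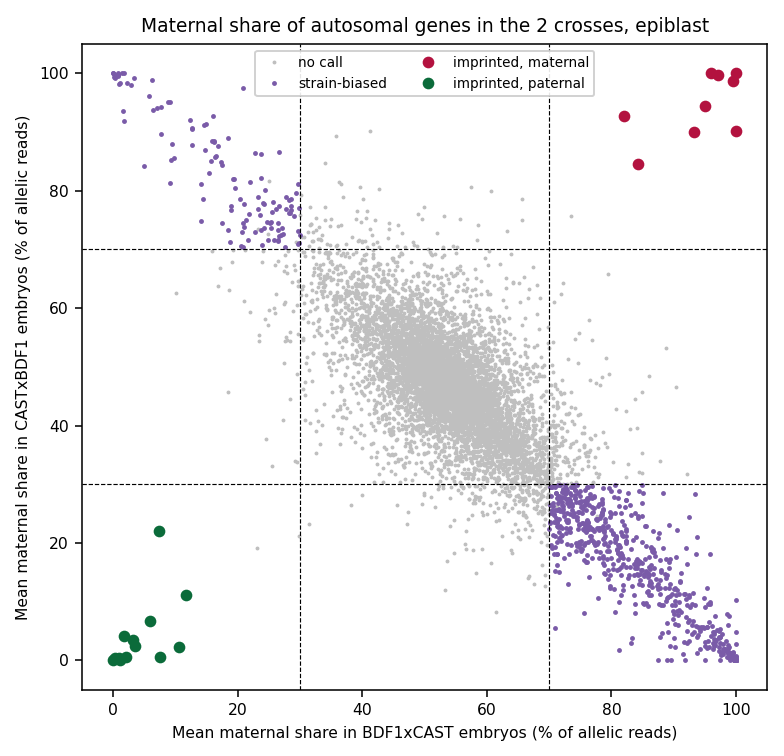
Mean maternal share of reads (percent) of each tested autosomal gene in the BDF1xCAST epiblasts (x axis, n = 7) and the CASTxBDF1 epiblasts (y axis, n = 4). The 23 genes called imprinted sit in the corners where both crosses show the same parent, and the 754 strain-biased genes in the corners where the parent switches with the cross.

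BDF1xCAST alone would have named far more genes than the reciprocal cross retained. In that cross 832 genes had a mean maternal share of at least 70%, of which 9 (1.08%) were called maternal by both crosses and 631 (75.8%) were called BDF1-biased. A further 196 genes had a mean paternal share of at least 70%, of which 14 (7.14%) were called paternal and 123 (62.8%) CAST-biased. Counted by share alone, 634 genes went from mainly maternal to mainly paternal when the cross was reversed, 127 went the opposite way, and 26 genes kept one parent, 10 maternal and 16 paternal.

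The paternally expressed genes with the lowest maternal share of summed reads were those of the Prader-Willi syndrome region on chromosome 7 and Peg3 and Mcts2. Snrpn-Snurf (chr7:59982501-60140219), which encodes a splicing protein and marks the start of that region's long paternal transcript, had maternal shares of 0% in the lowest BDF1xCAST embryo, 0% at the median and 0.986% in the highest. In the CASTxBDF1 embryos 1 to 4 the maternal share of Snrpn-Snurf was 0.187%, 0.136%, 1.20% and 0%. Its maternal to paternal ratio was -8.47 on the log2 scale (SE 0.23, edgeR adjusted p = 1.09e-15), so the father's allele gave nearly all reads whichever strain the father was. Snhg14 (chr7:59969577-59974431), the noncoding host transcript of the region's small nucleolar RNAs, had maternal shares of 0 to 4.44% and 0 to 0.592% in the BDF1xCAST and the CASTxBDF1 embryos. Magel2 (chr7:62376979-62381640), which encodes a partner of ubiquitin ligases, had no maternal read among 354 reads in all 11 libraries, which allows a share of up to 0.847%.

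Peg3 (chr7:6703892-6730441), a zinc finger gene linked to maternal behaviour and growth, had maternal shares from 0% to 2.26% with a median of 0.996% in the BDF1xCAST embryos. In the CASTxBDF1 embryos its shares were 0%, 0.815%, 0% and 0.730%, and the log2 ratio was -7.75 (SE 0.25, edgeR adjusted p = 1.3e-14). Mcts2 (chr2:152687148-152687946), an intronless retrogene, had maternal shares of 0% to 2.65% with a median of 0.775% in one cross and 0% in all 4 embryos of the other (edgeR adjusted p = 9.34e-12). Zdbf2 (chr1:63200358-63314576), a growth-promoting gene of the neonate, had maternal shares of 0 to 5.77% and 0 to 2.27%. All 6 of these genes had a maternal share under 6% in each of the 11 embryos.

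Mcts2 is shown because its promoter is a known germline imprint, methylated on the maternal allele. The window covers 250 bases before to 50 after the start, chr2:152686898-152687197 on the plus strand of GRCm38.p6, from RefSeq. Capitals mark the hexamer TGCCGC, searched on both strands, which the imprint-protecting factor ZFP57 is known to bind when methylated.
Mcts2: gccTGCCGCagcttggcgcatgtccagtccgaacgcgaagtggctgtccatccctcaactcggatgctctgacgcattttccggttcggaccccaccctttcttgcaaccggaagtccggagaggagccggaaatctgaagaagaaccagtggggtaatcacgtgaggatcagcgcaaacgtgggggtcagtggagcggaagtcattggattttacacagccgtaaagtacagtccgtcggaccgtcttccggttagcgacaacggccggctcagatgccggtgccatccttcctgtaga
This hexamer was present in 8 of 22 windows of the paternally expressed genes (those of Fkbp6, Mcts2, Mest, Snrpn, Snurf and Zdbf2, 6 of 13 gene symbols with a window), and in 11.6% of all 32851 promoter windows of this length. It was also present in 2 of 8 windows of the maternally expressed genes and in 3 of 11 windows of the cholesterol synthesis genes described below. Genes with several starts give several windows, and the motif was chosen after the values were seen. Zfp57 itself was at 0 CPM in all 11 epiblasts, where only reads over polymorphisms count.

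Other paternally expressed genes gave a low but uneven maternal share from embryo to embryo. Impact (chr18:12962942-12992950), a regulator of translation, had maternal shares of 1.52 to 5.46% in the BDF1xCAST embryos, with a median of 3.83%, and 1.15%, 5.91%, 2.50% and 0% in the CASTxBDF1 embryos. Mest (chr6:30733506-30748466), a hydrolase gene that promotes growth, had 0 to 7.59% and 0 to 8.00%. Slc38a4 (chr15:96994823-97055956), an amino acid transporter gene of the placenta and liver, had 0.274 to 6.33% with a median of 0.735% in BDF1xCAST. In CASTxBDF1 its shares were 2.95%, 12.7%, 0% and 0.862%, and the 12.7% of embryo 2 has an exact 95% binomial interval of 8.38 to 18.2% from 197 reads. The 2 highest maternal shares of Slc38a4 were those of the 2 libraries with most visceral endoderm RNA. Its log2 ratio was -5.24 over all libraries and -6.41 without these 2 (edgeR adjusted p = 3.53e-10 and 9.93e-14). The part of visceral endoderm RNA in the 2 shares was not tested.

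Sgce and Kcnq1ot1 showed the same unevenness on fewer reads. Sgce (chr6:4674350-4747204), which encodes epsilon-sarcoglycan, had a maternal share of 0% in 3 BDF1xCAST embryos and 3.70 to 20% in the other 4. In CASTxBDF1 it was 0% in 3 embryos and 26.9% in embryo 2 (exact interval 17.5 to 38.2%, 78 reads). Kcnq1ot1 (chr7:143213111-143296547), the long noncoding RNA that silences the Kcnq1 cluster in cis, was at 0% in 4 BDF1xCAST embryos, at 7.14% in embryo 6, 20.8% in embryo 3 (interval 10.8 to 34.1%) and 24.7% in embryo 8 (interval 16.5 to 34.5%). Its shares in CASTxBDF1 were 0%, 2.63%, 0% and 0%, and both genes passed the test over all libraries (log2 ratio of -4.17, SE 0.49, and -4.93, SE 0.54, edgeR adjusted p = 1.72e-05 and 6.79e-06). Without the 2 libraries with most visceral endoderm RNA the log2 ratios of Sgce and Kcnq1ot1 were -6.72 and -6.26 (edgeR adjusted p = 1.5e-07 and 1.21e-05). Such intervals and limits cover counting error only, since PCR copies were not told apart.

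Of the called genes outside the textbook list, 2400006E01Rik (chr3:41500931-41528474) and Gm32885 (chr15:97157117-97167278) were incompletely paternal. 2400006E01Rik, a noncoding transcript beside Jade1, had maternal shares of 6.90 to 15.3% with a median of 13% in BDF1xCAST and 9.48%, 16%, 16.2% and 3.09% in CASTxBDF1. Its log2 ratio was -2.95 (SE 0.18, edgeR adjusted p = 3.53e-10), and no embryo of either cross came near equal expression. Gm32885, a gene model beside Slc38a4, had 3.33 to 10.4% in BDF1xCAST and 42.1%, 23.1%, 15.0% and 8.28% in CASTxBDF1, where the 42.1% rests on 19 reads (interval 20.3 to 66.5%). Fkbp6 (chr5:135291704-135351810), an immunophilin gene known for meiosis, had 0 to 30.0% with a median of 6.67% in BDF1xCAST and 0%, 1.54%, 7.89% and 0% in CASTxBDF1 (log2 ratio -4.24, SE 0.39, edgeR adjusted p = 5.37e-07). The 30.0% of BDF1xCAST embryo 1 rests on 20 reads.

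Maternally expressed genes came from the Dlk1-Meg3, Grb10, H19, Kcnq1, Gnas and H13 regions. Meg3 (chr12:109540996-109571729), a noncoding RNA whose gene keeps the paternal Dlk1 domain in balance, had maternal shares of 98.6 to 100% with a median of 99.2% in BDF1xCAST and 96.1%, 98.5%, 100% and 100% in CASTxBDF1 (log2 ratio 6.57, SE 0.27, edgeR adjusted p = 3.45e-13). Rian (chr12:109603945-109661716), a noncoding transcript of the same domain, had no paternal read among 218, which allows a share of up to 1.38%. Grb10 (chr11:11930499-12037422), which encodes an adaptor that restrains growth, had maternal shares of 97.7 to 100% in 6 BDF1xCAST embryos, 86.8% in embryo 8 (interval 71.9 to 95.6%, 38 reads) and 99.2%, 99.3%, 100% and 100% in CASTxBDF1. LOC102631979, a gene model within Grb10 (chr11:11958406-11967116), had 82.8 to 100% and 100% in the 3 CASTxBDF1 embryos with enough reads, and its reads cannot be taken as independent of those of Grb10.

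The growth-restraining genes of distal chromosome 7 were maternal in every embryo measured. Cdkn1c (chr7:143458339-143461073), a cyclin-dependent kinase inhibitor gene, was at 100% in all 7 BDF1xCAST embryos and at 100%, 80.0% and 90.5% in the 3 CASTxBDF1 embryos with enough reads. Phlda2 (chr7:143501545-143503145), which limits placental growth, had 91.4 to 95.8% with a median of 93.4% in BDF1xCAST and 87.3%, 96.4%, 88.9% and 87.6% in CASTxBDF1 (log2 ratio 3.38, SE 0.13, edgeR adjusted p = 1.19e-13). H19 (chr7:142575530-142578146), the noncoding partner of Igf2, had 75.5 to 96.6% with a median of 80.2% in BDF1xCAST and 90.9%, 98.0%, 94.6% and 87.6% in CASTxBDF1 (log2 ratio 3.28, SE 0.24, edgeR adjusted p = 1.12e-08). Phlda2 and H19 had paternal reads in all 11 epiblasts, and Meg3 had none in 5 of them.

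The shares of H13 and Nespas are less certain. H13 (chr2:152688239-152705052), a signal peptide peptidase gene whose full-length transcript is made from the maternal allele that leaves Mcts2 silent, had 66.7 to 100% in 6 BDF1xCAST embryos and 92%, 90%, 63.6% and 92.5% in CASTxBDF1 (log2 ratio 2.53, SE 0.35, edgeR adjusted p = 1.86e-04). Nespas (chr2:174281237-174295436) is an antisense transcript known to be paternal, yet its reads were 87.5 to 100% maternal in 5 BDF1xCAST embryos and 81.8 to 100% in CASTxBDF1. Nespas overlaps Gnas, whose Nesp transcript is maternal, and without strand the reads of both cannot be told apart. The call of Nespas was lost when the embryo number was added as a block (edgeR adjusted p = 1).

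**Figure D2:**
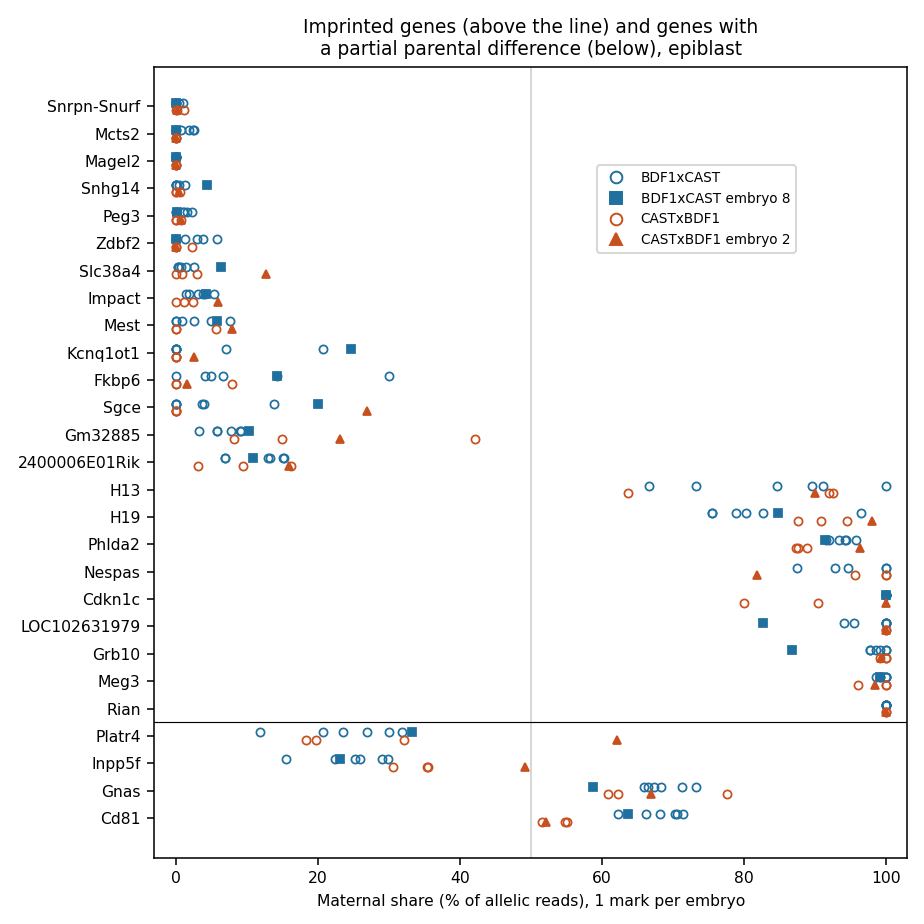
Maternal share of reads (percent, x axis) of the 23 genes called imprinted (above the line) and of the 4 genes with a partial parental difference (below it). There is 1 point per embryo with at least 10 reads, coloured by cross. Among the called genes, paternally expressed ones lie near 0% and maternally expressed ones near 100% in both colours. Their widest scatter is that of Gm32885, Fkbp6, Sgce, Kcnq1ot1 and H13.

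In each library, the normally silent allele of the listed genes called with their listed parent gave a median over 14 to 18 genes of 0.355 to 1.33% of reads in 6 BDF1xCAST embryos and of 4.34% in embryo 8. In CASTxBDF1 it was 0.187%, 1.73%, 0% and 0%, so the highest library of each cross was the one with most visceral endoderm RNA. When the reads of these genes were summed, the silent allele gave 1.57 to 2.67% in 6 BDF1xCAST embryos and 4.82% in embryo 8, and 2.18%, 2.39%, 2.23% and 1.47% in CASTxBDF1. By that measure CASTxBDF1 embryo 2 lay close to embryos 1 and 3. For comparison, 0.501 to 1.84% of X-linked reads in the male epiblasts were given to the paternal allele. The genes of the silent-allele share were chosen on these libraries, and the values are a description.

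A parental effect without the 70% share was found for 4 genes. The parental term passed for 27 of 8469 genes (0.319%), and the other 4 were Platr4, Inpp5f, Gnas and Cd81. Inpp5f (chr7:128610778-128696437), an inositol phosphatase gene with a known paternal isoform in the brain, had maternal shares of 15.5 to 29.9% with a median of 25.2% in BDF1xCAST and 30.7%, 49.3%, 35.4% and 35.5% in CASTxBDF1. It was paternally biased on average (log2 ratio -1.19, SE 0.13, edgeR adjusted p = 1.05e-05), and the 49.3% of embryo 2 (interval 40.5 to 58.0%) was the only value near 50%. Platr4 (chr3:41487681-41493199), a noncoding RNA gene beside 2400006E01Rik, had 11.9 to 33.3% and 32.1%, 62.2%, 18.4% and 19.7% (log2 ratio -1.35, SE 0.27, edgeR adjusted p = 0.0246). Platr4 no longer passed in 9 of the 20 alternative fits that gave it a value, with adjusted p up to 0.267. These include the fits without each of 6 single embryos. Without the 2 libraries with most visceral endoderm RNA its log2 ratio was -1.70 (edgeR adjusted p = 4.23e-04).

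Gnas and Cd81 were partly maternal. Gnas (chr2:174284306-174346744), which encodes the stimulatory G protein subunit and several imprinted isoforms, had 58.8 to 73.3% with a median of 67.4% in BDF1xCAST and 60.9%, 66.9%, 62.3% and 77.6% in CASTxBDF1 (log2 ratio 1.06, SE 0.10, edgeR adjusted p = 7.76e-07). Cd81 (chr7:143052750-143067930), a tetraspanin gene of the Kcnq1 cluster, had 62.3 to 71.5% with a median of 68.2% in BDF1xCAST and 51.6%, 52.1%, 55.1% and 54.8% in CASTxBDF1. Its parental log2 ratio was 0.64 (SE 0.07, edgeR adjusted p = 4.55e-06) and its strain term also passed (adjusted p = 1.6e-05), with the BDF1 allele higher. All 11 values of Cd81 lay above 50%, and the crosses did not overlap.

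Of the 38 listed genes tested, 19 were not called. Of these 19, 3 (Cd81, Gnas and Inpp5f) are described above, and 6 of the 19 had an unadjusted p under 0.05, beside 5.09% of all genes tested. Nap1l4, a histone chaperone gene at the edge of the Kcnq1 cluster, had maternal shares of 44.5 to 58.8% in BDF1xCAST and 42.5 to 58.9% in CASTxBDF1. Commd1, the host gene of the imprinted Zrsr1, had 30.4 to 50.0% and 45.1 to 59.1%. Asb4, a ubiquitin ligase subunit gene, had 47.0 to 79.5% in 6 BDF1xCAST embryos and 41.3%, 64.3%, 37.6% and 0% in CASTxBDF1, with the 0% on 22 reads (edgeR adjusted p = 1). Jade1 and Gab1, a chromatin reader gene and a signalling adaptor gene, had means of 47.7% (SD 8.9, n = 7) and 47.6% (SD 6.1, n = 7) in BDF1xCAST, and 46.5% (SD 7.0, n = 4) and 45.9% (SD 18, n = 4) in CASTxBDF1. A p above the threshold does not show that these genes lack a parental bias.

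The parental ratio of several genes differed between the epiblast and the ExE of the same embryos. Each embryo's maternal to paternal ratio in ExE was compared with that in its epiblast, with strain differences between tissues as a term, in a fit that was added after the data had been seen. Of 7568 genes tested, 31 (0.41%) passed an edgeR adjusted p of 0.05, 15 more maternal and 16 more paternal in ExE. Of the 32 listed genes that could be tested, 11 passed. Without the embryos of the 2 libraries with most visceral endoderm RNA, 28 genes passed, 26 of them the same.

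Cd81 went from the partial bias given above to 91.8 to 100% maternal in the ExE of the BDF1xCAST embryos and 99.2 to 99.8% in those of CASTxBDF1 (log2 difference of the ratio 5.97, SE 0.27, edgeR adjusted p = 4.98e-15). Tssc4, its neighbour in the Kcnq1 cluster, had 45.6 to 77.3% and 31.2 to 56.9% in epiblast and 89.1 to 100% and 89.4 to 100% in ExE (difference 4.75, SE 0.43, edgeR adjusted p = 1.51e-08). Ascl2, a transcription factor gene of the trophoblast in the same cluster, had 97.6 to 100% and 97.9 to 100% in ExE against means of 65.6% (SD 18, n = 5) and 78.6% (SD 19, n = 3) on 11 to 72 reads in epiblast. Every epiblast share of Cd81 and Tssc4 lay below every ExE share. The same was so for Ascl2 in 7 of the 8 epiblasts with at least 10 reads, and the other, CASTxBDF1 embryo 3, was at 100% on 13 reads.

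Jade1, Gab1 and Sfmbt2 were more paternal in ExE. Jade1 (chr3:41555734-41616864) had maternal shares of 3.66 to 8.75% and 7.47 to 10.5% in ExE (difference -3.61, SE 0.20, edgeR adjusted p = 3.29e-13). Gab1 (chr8:80764431-80880519) had 2.04 to 10.9% and 2.05 to 7.63% in ExE (difference -3.88, SE 0.28, edgeR adjusted p = 1.6e-10), although 1 epiblast, that of CASTxBDF1 embryo 2, was also low at 21.8%. Sfmbt2 (chr2:10370437-10595253), a Polycomb group gene of the trophoblast, had 0 to 0.199% and 0% in ExE. Its epiblast shares of 30.8 to 93.3% and 5.00 to 40.0% rest on 10 to 79 reads per library, with 2 BDF1xCAST libraries under the minimum, and ExE markers summed to 27.1 to 232 CPM in the epiblasts. Beside Jade1, 2400006E01Rik and Platr4 also had lower maternal shares in ExE (means of 2.15% and 4.17%, and of 13% and 8.46%, in BDF1xCAST and CASTxBDF1, edgeR adjusted p = 4.16e-06 and 2.37e-04).

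Impact and Inpp5f ran the other way. The maternal share of Impact was 6.03 to 25.9% in the ExE of BDF1xCAST and 15.8 to 41.2% in that of CASTxBDF1 (difference 3.08, SE 0.32, edgeR adjusted p = 2.89e-07). In each cross the lowest ExE value of Impact lay above the highest epiblast value. Inpp5f was paternally biased in epiblast and had means of 46.7% (SD 11, n = 7) and 61.3% (SD 8.5, n = 4) in ExE (difference 1.38, SE 0.24, edgeR adjusted p = 1.66e-03). H19 and Phlda2 were more completely maternal in ExE, with 95 to 100% and 93.0 to 100% over both crosses (edgeR adjusted p = 5.65e-03 and 1.21e-06). The difference of Slc38a4 (-2.33, SE 0.49, edgeR adjusted p = 0.0143) was lost without the embryos of the 2 libraries with most visceral endoderm RNA (adjusted p = 0.787).

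**Figure D3:**
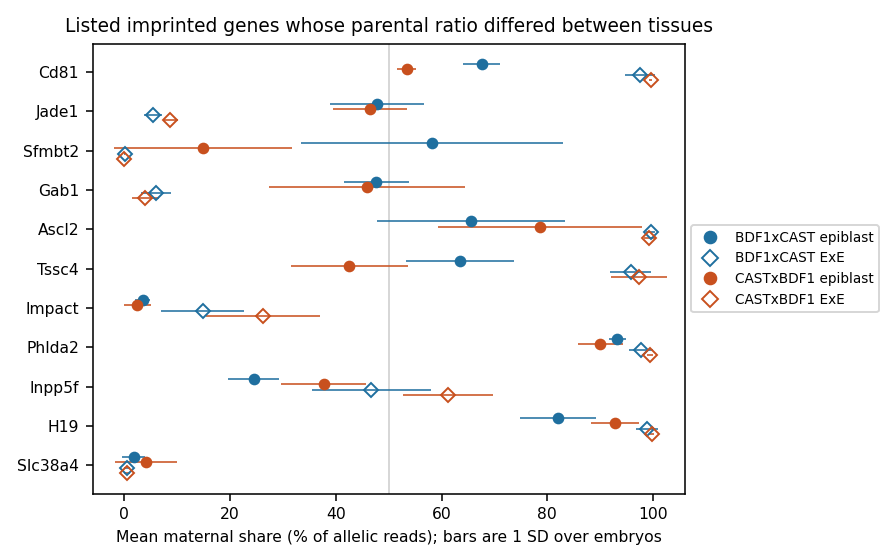
Mean maternal share of reads (percent) of the 11 listed imprinted genes whose parental ratio differed between the epiblast and the extraembryonic ectoderm. Each mark is the mean of 1 cross in 1 tissue, coloured by cross, and bars are 1 SD over embryos. Cd81, Tssc4 and Ascl2 move to near 100% in extraembryonic ectoderm, Jade1, Gab1 and Sfmbt2 to near 0%, and Impact and Inpp5f away from the paternal side.

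Of the 19 called genes that could also be tested alone in ExE, 18 were called there with the same test. The exception was H13, with means of 65.4% and 77.6% in ExE.

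Many more genes had read shares that followed the strain than the parent. In the same fit 754 genes (8.9%) were called strain-biased, 631 (7.45%) toward BDF1 and 123 (1.45%) toward CAST, with the 70% share required in both crosses. The median gene had a BDF1 share of 53.7%. These are shares of assigned reads, and whether reads of both strains mapped equally well was not tested. When the strain term was centred on each library's BDF1 share of summed reads, 644 genes were called, 528 of them among the 754. Of the 644, 405 were toward BDF1 and 239 toward CAST. Of the 38 listed imprinted genes tested, 0 were among the 754. Gene models, pseudogenes and small RNA genes, judged by name, made up 190 of the 754 (25.2%), beside 757 (8.94%) of the genes tested.

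The strongest strain biases toward BDF1 had a recovered BDF1 share of 100% in every embryo. For values at a library's score limit, the share came from a rounded ratio, so a small share of CAST reads could go unseen. Ftl1 (chr7:45457944-45459886), the ferritin light chain gene with many processed copies, had a BDF1 share of 100% in all 11 embryos on 2507 to 32955 reads. Mir682, Gm12338 and the overlapping Gadl1 and Gm9385, which share their reads, were also at 100%. Toward CAST, Gm6485 (chr3:104752373-104753302) had a BDF1 share of 0 to 0.340% and Gm6252 of 0% in all embryos. Where a gene has near-identical copies, as the ferritin gene is known to have, reads of a copy can be placed on it, and its share is uncertain. Whether that bears on these genes was not tested.

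Among genes with an established function, chosen after the values were seen, Tuba1b (chr15:98931427-98934560), an alpha tubulin gene with several close relatives, had a BDF1 share of 99.0 to 100%. Adgrd1 (chr5:129096666-129204599), an adhesion receptor gene, had 3.92 to 8.41% in 6 BDF1xCAST embryos and 6.38 to 14.7% in CASTxBDF1. BDF1xCAST embryo 8, 1 of the 2 libraries with most visceral endoderm RNA, had 52.0% on 50 reads. Of the ribosomal protein genes, 28 could be tested, of which 12 were called toward BDF1 and 1 toward CAST, beside 7.45% and 1.45% of all genes tested.

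The balance of all autosomal reads did not follow the parent. BDF1 alleles gave 57.5 to 58.6% of autosomal reads in the 7 BDF1xCAST embryos (mean 57.7, SD 0.38), where they are maternal, and 58.1%, 56.4%, 57.8% and 57.9% in the CASTxBDF1 embryos (mean 57.6, SD 0.78), where they are paternal. The difference of -0.188 percentage points had an exact two-sided permutation p of 0.606 over 330 splits. It was 0.193 without CASTxBDF1 embryo 2, the embryo with the lowest value.

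Because BDF1 is a hybrid, each embryo inherits from it a C57BL/6 or a DBA allele at every gene where these differ, and sibling embryos need not carry the same one. Over 3444 autosomal genes with at least 50 reads in every library, the BDF1 share varied between embryos of a cross with a median SD of 5.00 percentage points, and the 95th percentile was 10.2 points. Of these genes, 14 had an SD of at least 15 points, and the 10 largest include no gene called imprinted and none that passed the parental term.

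Several of these genes fell into separate levels that cut across the crosses. Gm9855 (chr10:42052558-42055453) had a BDF1 share of 0 to 1.05% in 5 embryos, 3 BDF1xCAST and 2 CASTxBDF1, and of 54.8 to 66.2% in the other 6. In the ExE of the same embryos it was 0 to 1.61% and 55.9 to 70.9%. Gm40630, second in order, overlaps Gm9855 and shares its reads. Pttg1 (chr11:43420248-43426248), the securin gene that holds sister chromatids together until anaphase, had 17.0 to 20% in 6 embryos and 58.4 to 62.6% in the other 5 on 6368 to 17166 reads. In ExE the same embryos had 18.0 to 22.0% and 40.8 to 43.0%. Lyrm7 (chr11:54826866-54861071), a respiratory complex assembly gene 11.4 Mb away, split the embryos into the same 6 and 5, with 15.0 to 31.6% and 56.9 to 73.5%.

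Wdfy1 (chr1:79702262-79776047), an endosomal adaptor gene, was at 8.52 to 20.5% in 7 embryos and 53.8 to 57.2% in 4. Hspa8 (chr9:40801273-40805199), the constitutive heat shock protein 70 gene with many processed copies, was at 38.2 to 50.0% in 6 embryos and 81.0 to 84.3% in 5. Zfp277 (chr12:40315046-40445790), a zinc finger gene, was at 24.5 to 33.5% in 7 and 56.0 to 63.7% in 4. For 7 of the 10 genes, the ExE values of the low and the high embryos did not overlap. The exceptions were Wfdc2, Arhgef33 and D3Ertd751e. Levels within one cross were thus found again in a second library of the same embryo, and which C57BL/6 or DBA allele an embryo carried was not tested.

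**Figure D4:**
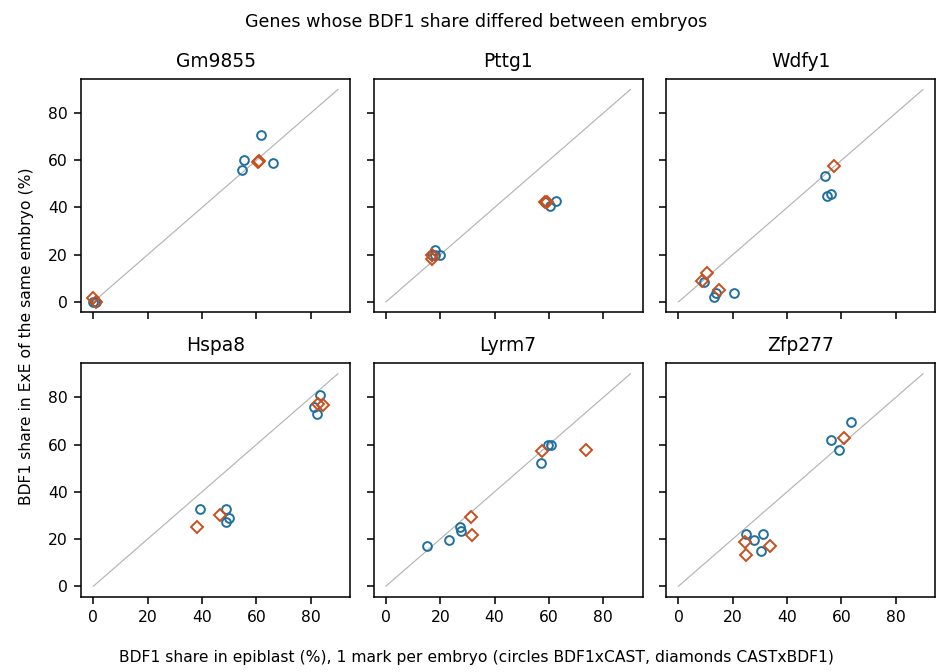
BDF1 share of reads (percent) of genes with a large spread between embryos, in the epiblast (x axis) and in the extraembryonic ectoderm of the same embryo (y axis). There is 1 point per embryo, coloured by cross. Gm9855, Pttg1, Wdfy1, Hspa8, Lyrm7 and Zfp277 form a low and a high group of embryos, each with members of both crosses.

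Total reads per gene were then compared between the crosses, maternal and paternal together. No gene passed edgeR's test at an adjusted p of 0.05 among 9368 autosomal genes (0%). At an unadjusted p under 0.05, 653 genes differed, 385 higher (4.11%) and 268 lower (2.86%) in CASTxBDF1. DESeq2 called 20 of 9340 genes (0.214%), 16 higher and 4 lower in CASTxBDF1, and limma-voom called 0, with 633 at an unadjusted p under 0.05. Of the 20 genes called by DESeq2, 5 belong to the list of cholesterol synthesis genes.

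Cholesterol synthesis genes code for the enzymes that build sterols from acetyl-CoA, and are switched on together by SREBP2 when a cell is short of sterol. The list of these genes had 20 members, of which 17 could be tested. All 17 had a positive log2 difference (CASTxBDF1 minus BDF1xCAST), beside 50.4% of all genes tested. The median difference was 0.76, beside 0.00 for all genes. At an unadjusted p under 0.05, 13 of the 17 were higher in CASTxBDF1, beside 4.11% of all genes. For 5 of the 17 the crosses did not overlap, beside 0.662% of all genes in that direction and 0.875% in the other. None passed the adjusted threshold of edgeR's test (smallest adjusted p = 0.232). The summed level of the list was 1347, 1232, 1274 and 1105 CPM in the CASTxBDF1 embryos, and 687 to 1020 CPM with a median of 754 CPM in the BDF1xCAST embryos. The highest BDF1xCAST library, embryo 8, lay below the lowest CASTxBDF1 library.

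The individual enzymes show the size of the difference. Msmo1, a methylsterol oxidase gene, was at 23.6 to 73.3 CPM with a median of 61.1 in BDF1xCAST and at 146, 111, 155 and 145 CPM in CASTxBDF1 (log2 difference 1.42, SE 0.26, edgeR adjusted p = 0.232, DESeq2 adjusted p = 1.1e-03). Without the 2 libraries with most visceral endoderm RNA, Msmo1 was the gene that passed edgeR's test (log2 difference 1.40, adjusted p = 0.0147). Hmgcs1, which encodes the synthase that makes HMG-CoA, was at 15.6 to 28.9 CPM with a median of 20.6 and at 64.2, 34.7, 76.3 and 32.9 CPM (log2 difference 1.37, SE 0.26, edgeR adjusted p = 0.232, DESeq2 adjusted p = 2.4e-03). Cyp51, the lanosterol demethylase gene, was at 67.4 to 86.4 CPM with a median of 76.0 and at 129.5, 112, 144 and 105 CPM (log2 difference 0.76, SE 0.15, edgeR adjusted p = 0.266, DESeq2 adjusted p = 1.1e-03). For Msmo1, Hmgcs1 and Cyp51 every CASTxBDF1 embryo lay above every BDF1xCAST embryo, as it did for Lss and Dhcr7.

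Lss, the lanosterol synthase gene, was at 27.3 to 43.6 CPM with a median of 34.7 in BDF1xCAST and at 69.0, 51.9, 50.4 and 49.9 CPM in CASTxBDF1 (log2 difference 0.71, SE 0.18, edgeR adjusted p = 0.517, DESeq2 adjusted p = 0.0811). Insig1, which encodes a sterol-sensing brake on SREBP processing, was at 11 to 36.6 CPM with a median of 13.3 and at 34.9, 27.1, 41.8 and 21.7 CPM (1.02, SE 0.29, edgeR adjusted p = 0.591, DESeq2 adjusted p = 0.175). For Insig1, BDF1xCAST embryo 8 was the library of its cross that lay above the lowest CASTxBDF1 value. The difference was negative in at least 1 alternative fit for 2 of the 17 genes. Of the 17 genes, Insig1 was also called strain-biased toward BDF1 and Dhcr7 toward CAST. In bulk samples, more RNA per cell and more cells of a type cannot be told apart.

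The promoter windows of the 3 genes with the smallest DESeq2 adjusted p in the list are shown because the genes of the list differed in one direction. Each window covers 250 bases before to 50 after the start in GRCm38.p6, from RefSeq, on the gene's strand: chr8:64733529-64733828 (minus) for Msmo1, chr13:119690101-119690400 (plus) for Hmgcs1 and chr5:4104648-4104947 (minus) for Cyp51. Capitals mark ATTGG on either strand, the CCAAT box bound by the SREBP partner NF-Y, and the sterol regulatory core TCACNCCAC, N being any base.
Msmo1: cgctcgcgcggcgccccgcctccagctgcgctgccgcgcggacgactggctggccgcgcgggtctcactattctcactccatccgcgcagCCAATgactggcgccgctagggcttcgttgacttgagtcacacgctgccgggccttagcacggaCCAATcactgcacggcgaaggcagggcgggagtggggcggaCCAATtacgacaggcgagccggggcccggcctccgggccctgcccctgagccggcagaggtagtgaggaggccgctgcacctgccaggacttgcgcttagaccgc
Hmgcs1: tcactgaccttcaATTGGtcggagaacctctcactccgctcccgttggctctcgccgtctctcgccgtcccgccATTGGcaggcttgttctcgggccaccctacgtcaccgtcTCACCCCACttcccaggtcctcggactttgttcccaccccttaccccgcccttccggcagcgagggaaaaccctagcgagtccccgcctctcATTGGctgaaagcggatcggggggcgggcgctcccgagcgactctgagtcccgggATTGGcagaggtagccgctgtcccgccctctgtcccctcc
Cyp51: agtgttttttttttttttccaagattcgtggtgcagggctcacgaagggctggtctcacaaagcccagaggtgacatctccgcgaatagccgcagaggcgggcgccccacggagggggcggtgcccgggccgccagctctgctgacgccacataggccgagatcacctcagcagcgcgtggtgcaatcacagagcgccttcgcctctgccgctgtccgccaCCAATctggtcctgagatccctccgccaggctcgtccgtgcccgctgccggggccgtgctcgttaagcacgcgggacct
The CCAAT box was present in the windows of all 9 list genes that had one, in 9 of 11 windows (81.8%), and in 37.4% of all 32851 windows. The window of Hmgcs1 held 4 copies, that of Msmo1 3 and that of Cyp51 1. TCACNCCAC was present in 1 of the 11 windows, that of Hmgcs1, and in 1.24% of all windows. A match describes letters only, and the motifs were chosen after the values were seen.

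**Figure D5:**
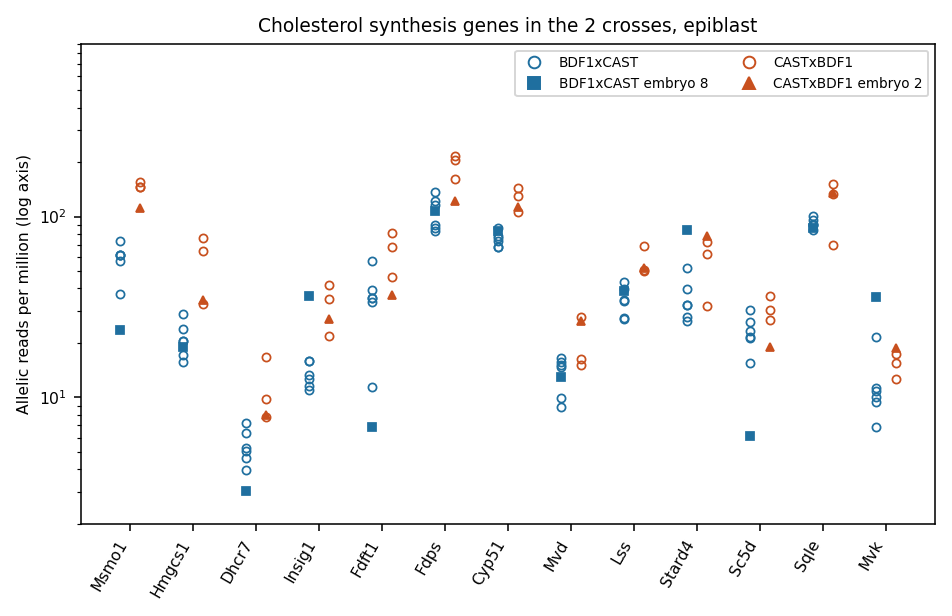
Level (CPM) of 13 cholesterol synthesis genes in each epiblast, with 1 point per embryo and cross by colour. The 4 CASTxBDF1 embryos lie above all 7 BDF1xCAST embryos for Msmo1, Hmgcs1, Cyp51, Lss and Dhcr7.

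In the ExE of the same embryos 15 of 16 testable cholesterol genes had a positive difference, beside 48.3% of all genes, with a median of 0.38 and 5 at an unadjusted p under 0.05 (6.33% of all ExE genes in that direction). Msmo1 had an ExE difference of 0.45 (SE 0.20). The test of the cross effect between tissues called 0 of 10617 genes (0%, 604 at an unadjusted p under 0.05), with adjusted p of 0.69 for Msmo1. A smaller response of the list in ExE was therefore not shown.

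Glycolysis and hypoxia genes had 14 of 16 positive differences in epiblast, beside 50.4% of all genes, and a median of 0.38. At an unadjusted p under 0.05, 5 were higher, beside 4.11% of all genes. In ExE the glycolysis and hypoxia genes had 17 of 18 positive differences, beside 48.3% of all genes. Their ExE median of 0.63 was above that of the cholesterol genes there. Of these 18, 13 were higher at an unadjusted p under 0.05 in ExE, beside 6.33% of all ExE genes. None passed edgeR's adjusted threshold in ExE (smallest adjusted p = 0.0505). Aldoc, an aldolase gene outside that list, was at 3.23 to 21.5 CPM in BDF1xCAST and at 43.1, 22.9, 31.6 and 38.7 CPM in CASTxBDF1 (log2 difference 1.87, SE 0.40, edgeR adjusted p = 0.308). In ExE, Aldoc passed edgeR's test (1.30, SE 0.24, adjusted p = 0.043). Ifrd1, an interferon-related regulator gene, was at 61.5 to 102 CPM in BDF1xCAST and at 23.4, 46.1, 39.0 and 40.9 CPM in CASTxBDF1 (-0.98, SE 0.20, edgeR adjusted p = 0.266), and passed in ExE (-1.12, SE 0.15, adjusted p = 0.0109), where 22 of 9241 genes (0.238%) passed. Plekha2, which encodes a phosphoinositide-binding adaptor, was at 18.2 to 44.2 CPM and at 52.5 to 76.8 CPM in the epiblasts (1.20, SE 0.22, edgeR adjusted p = 0.232) and had a difference of 0.00 (SE 0.18) in ExE.

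The p53 target genes had 7 of 8 positive differences, beside 50.4% of all genes, and a median of 0.65. That median was 0.18 without the 2 libraries with most visceral endoderm RNA. The summed level of the p53 targets was 1519 CPM in CASTxBDF1 embryo 2 and 468 to 911 CPM in the other 10 epiblasts. Epiblast markers had 4 of 10 positive differences with a median of -0.11. Heat shock and metallothionein genes had 8 of 8 positive differences, beside 50.4% of all genes, with a median of 0.58. The summed level of the heat shock and metallothionein genes was 6043 CPM in CASTxBDF1 embryo 2 and 2246 to 4249 CPM in the other epiblasts.

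Imprinted genes did not differ in total level between the crosses beyond the adjusted threshold. Of the 23 called genes, 10 were higher and 13 lower in CASTxBDF1. At an unadjusted p under 0.05, 1 of the 23 was higher and 2 were lower, beside 4.11% and 2.86% of all genes. H19 was at 16 to 80.0 CPM with a median of 27.2 in BDF1xCAST and at 36.7, 600.5, 60.3 and 55.4 CPM in CASTxBDF1 (log2 difference 2.60, SE 0.63, edgeR adjusted p = 0.449). The highest H19 value of each cross was that of the library with most visceral endoderm RNA, and without those libraries the difference was 1.12 (adjusted p = 0.27). Slc38a4 was at 74.0 to 181 CPM and at 88.0, 75.1, 85.7 and 42.0 CPM (-0.67, SE 0.25), and Kcnq1ot1 at 16.4 to 73.9 CPM and at 14.5, 29.0, 16 and 7.60 CPM (-0.84, SE 0.37).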

How the data were processed

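RNA of single epiblasts was made into SMART-Seq v4 libraries, per the labels' protocols, and the submitters' processing notes name STAR 2.5.0, HTSeq and mm10 without a role. The authors deposited, for each gene and library, the count of reads over strain polymorphisms, an allelic ratio (CAST share minus 0.5, a score rounded to 0.01) and an allelic score (a signed −log10 binomial p, set to 0 under 10 reads). To recover allele counts, each value was matched to the integer CAST read count that yields both deposited scores: 99.99% of 202627 scored values matched within 0.002, and 857 values at a library's score limit (6.45% of reads) used the rounded ratio. All 30546 rows name genes, 29557 of them autosomal, and 0 columns were left out as belonging to no sample.

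Maternal and paternal counts were fitted with edgeR 4.0.16 (R 4.3.3, quasi-likelihood, two-sided), with terms for library, parent and strain, on the 11 epiblasts. Total reads were fitted with edgeR (TMM, filterByExpr, no covariate), and tissues were compared with a term per embryo. P-values were Benjamini-Hochberg adjusted across every gene in a fit. DESeq2 1.42.0 and limma 3.58.1 were alternatives, with other read minimums, shares, scalings, sex, the embryo number and each embryo left out. The scripts were tested on simulated data. The comparison of parental ratios between tissues, the ExE fit of totals and the fits without the 2 libraries with most visceral endoderm RNA were added after the data had been seen. Named genes are those called imprinted, those passing the parental term alone, the 5 strongest strain biases in each direction with at least 50 reads per library, the listed genes for totals, and the 10 with the largest spread between embryos. Genes named in the comparison of tissues, and Aldoc, Ifrd1 and Plekha2, were chosen after their values were seen. Some genes of the lists are not reported here by name. Members and lists were chosen with earlier results of these data known. Embryo numbers of the crosses do not pair samples.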

Additional observations from a re-analysis of the deposited data

Results flagged for a closer look

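A test for 1 sample far from the rest of its group (Dixon's gap over range) was run on 79 groups of 4 or 7 epiblasts. For normally distributed values it picks about 1 in 20 groups. Where every other embryo of a group was at 0%, as for Zdbf2, Kcnq1ot1 and Sgce in CASTxBDF1, any share above 0% was picked. The 20 values picked therefore cannot be set against that rate. Most belong to the 2 libraries with most visceral endoderm RNA. BDF1xCAST embryo 8 stood apart in its total of 1311863 reads (next 2372314), its BDF1 share of autosomal reads of 58.6% (next 57.8%), its median silent-allele share of 4.34% and its summed visceral endoderm markers of 1048 CPM. Its maternal shares of Snhg14 (4.44%), Slc38a4 (6.33%), LOC102631979 (82.8%) and Grb10 (86.8%) were each on the side of the normally silent allele, and its H19 level (80.0 CPM) and the cholesterol list (1020 CPM summed) were the highest of its cross.

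CASTxBDF1 embryo 2 stood apart in its summed visceral endoderm markers of 3867 CPM (next 177 CPM), its H19 level of 600.5 CPM (next 60.3 CPM), its median silent-allele share of 1.73% (2.39% when reads were summed, next 2.23%) and its maternal shares of Sgce (26.9%), Kcnq1ot1 (2.63%) and Phlda2 (96.4%). CASTxBDF1 embryo 3 stood apart for Snrpn-Snurf (1.20% maternal) and H13 (63.6%), and CASTxBDF1 embryo 1 for Zdbf2 (2.27%) and the summed epiblast markers (4902 CPM). The part of visceral endoderm RNA in these values was not tested.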

How the results depend on the processing

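Counts of calls depended mainly on the read minimum and the share. With a minimum of 50 reads, 13 genes were called imprinted, all among the 23, 16 passed the parental term and 420 were strain-biased. With a minimum of 1 read 1190 were strain-biased, and with a share of 0.6 and of 0.9 the strain-biased genes numbered 1851 and 174. Leaving out 1 embryo at a time gave 20 to 23 imprinted genes, 23 to 28 genes passing the parental term, 679 to 763 strain-biased genes, 0 to 1 gene for totals (1, Msmo1, without BDF1xCAST embryo 8) and 0 to 0 for the cross by tissue. Without the 2 libraries with most visceral endoderm RNA, 21 genes were called imprinted, 20 of them among the 23, and 1 for totals. For totals DESeq2 called 20 genes, no filter on low counts 25 (20 of them highest in CASTxBDF1 embryo 2) and female embryos only 1. For the cross by tissue, no filter called 47. The difference in overall BDF1 share ranged from -0.387 to 0.193 points with 1 embryo left out, the latter, the only reversal, without CASTxBDF1 embryo 2.

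Embryos of the 2 crosses that share a number deviated together with correlations of 0.0435, -0.2291, -0.0287 and 0.2364, so the numbers do not pair them. With the number as a replicate block, 22 genes were called imprinted, 36 passed the parental term (25 of the 27 among them), 747 were strain-biased and 0 passed for totals. Of 536 parental ratios of named genes over all alternatives, 10 lost the call (Platr4 in 9 and Nespas in 1) and the others kept direction and call. The cause of these changes was not tested. The depth of 10 to 78 reads per library behind genes such as Sgce and Fkbp6 limits single shares to wide intervals.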
